A study of Mus musculus with 16 samples.

Results

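CD24 cells are one of 8 cell subsets sorted by flow cytometry from femurs of mice aged 3 months and homozygous for PolG D257A, and their mitochondrial DNA is described here beside that of the other skeletal subsets. The 2 libraries titled CD24, of 16 libraries in all, were set against the 12 libraries titled Thy, 6C3, Thy_6C3, CD105, CD24_CD29 and CD29. The 2 CD45 libraries, named for a marker of blood cells, were left out. Every subset had replicates 1 and 2, every library came from mice of that one genotype, and each CD24 library was compared with the 6 others of its replicate number. No library from mice with intact proofreading was used, so each difference below is one between subsets of mutant mice. The labels name neither the sort gates nor the mice behind a library. The p-values therefore speak of the spread among these libraries alone, and that spread may be technical.

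PolG copies mitochondrial DNA, and the D257A change removes its proofreading, so that copying errors accumulate. A cell holds many mitochondrial genomes, and a mutation can be present in some of them and absent from the rest, a state called heteroplasmy. Mutations present in a shared ancestor of sorted cells are seen in several subsets, while drift during cell division can raise or lower a mutation in one lineage. CD24 is a surface glycoprotein used as a sorting marker in skeletal, neural and blood lineages. The deposited counts cover the mitochondrial genome, and nuclear Cd24a, the gene of the marker itself, was not analysed here. The name CD24 therefore rests on the label.

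The libraries were made by ATAC-seq, in which a transposase cuts accessible DNA, and mitochondrial DNA is read deeply because it carries no nucleosomes. Mean coverage was 16177 and 17637 counts per position in CD24 replicates 1 and 2, against 6569 to 77252 in the 12 others. The difference in log2 coverage was -0.51 (two-sided exact permutation p = 0.429 over the 49 ways to take 1 of 7 libraries in each replicate number, where the smallest p possible is 0.0204). At 3 counts of the mean coverage, a count of 0 allows an allele fraction of up to 0.0186% in CD24 replicate 1 and 0.0170% in replicate 2. Thy replicate 2 stood apart from every other library, with 2530 alleles at 1% or more where the other 13 libraries held 98 to 416. Main results that move without it are given both ways.

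Alleles are named by the reference base, the position (from 1, GRCm38 mitochondrial numbering) and the base found in its place, and their fraction is the count of that base over the coverage. The sites below carry the comparisons that follow, and are shown as 31 reference bases on the plus strand with the changed base in capitals. The first 3 were higher in CD24 and the next 4 lower, at the smallest p-values or the largest ratios, but none passed the adjusted test. The last 4 are alleles that most libraries of a replicate number shared and whose level in CD24 lay outside the range of the others of that number. In the other replicate number each of them lay inside that range.
A1085G in TrnV, MT:1070-1100: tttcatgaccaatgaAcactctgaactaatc
C3925T in ND2, MT:3910-3940: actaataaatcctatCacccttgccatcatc
C11030T in ND4, MT:11015-11045: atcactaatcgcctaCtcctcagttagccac
C8752T in COX3, MT:8737-8767: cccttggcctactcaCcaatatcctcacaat
C8297T in ATP6, MT:8282-8312: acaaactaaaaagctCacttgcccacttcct
C2192T in mt-Rnr2, MT:2177-2207: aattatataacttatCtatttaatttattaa
G7406A in COX2, MT:7391-7421: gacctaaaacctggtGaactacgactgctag
C7953T in ATP8 and ATP6, MT:7938-7968: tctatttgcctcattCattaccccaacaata
C227T in mt-Rnr1, MT:212-242: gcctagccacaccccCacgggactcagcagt
G5171A between TrnN and TrnC, MT:5156-5186: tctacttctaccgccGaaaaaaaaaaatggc
C1051T in TrnV, MT:1036-1066: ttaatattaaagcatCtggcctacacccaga

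The CD24 libraries had the lowest load of the 7 subsets in both replicate numbers. Load is the share of non-reference bases at a position, averaged over the genome. Every non-reference base enters it, and most of it lay in alleles under 1%. Mutations and sequencing errors were not told apart. Load was 0.405% in CD24 replicate 1, against a lowest of 0.429% (CD105) in the other 6 libraries of that number. Their median was 0.455% and their highest 0.484% (6C3). It was 0.385% in CD24 replicate 2, against a lowest of 0.409% (CD105), a median of 0.461% and a highest of 1.114% (Thy). Both CD24 libraries lay below all 12 others, and CD105 was the next lowest in each number. CD24 averaged 0.395% ± 0.0139 (SD, n = 2), a difference of -0.115 percentage points from the others that did not pass the test (two-sided exact permutation p = 0.163). Each choice that took Thy replicate 2 gave a larger absolute difference than CD24 did. With that library included, the p of this permutation test could therefore not reach its smallest value of 0.0204. Without Thy replicate 2 the difference was -0.0600 points and passed (exact permutation p = 0.0238, the smallest that the 42 remaining choices allow). Thy replicate 2 was singled out by its own values, and leaving out any other single library gave no pass. Ranks within the replicate number, a setting chosen after seeing the data, gave exact permutation p = 0.0408.

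**Figure D1:**
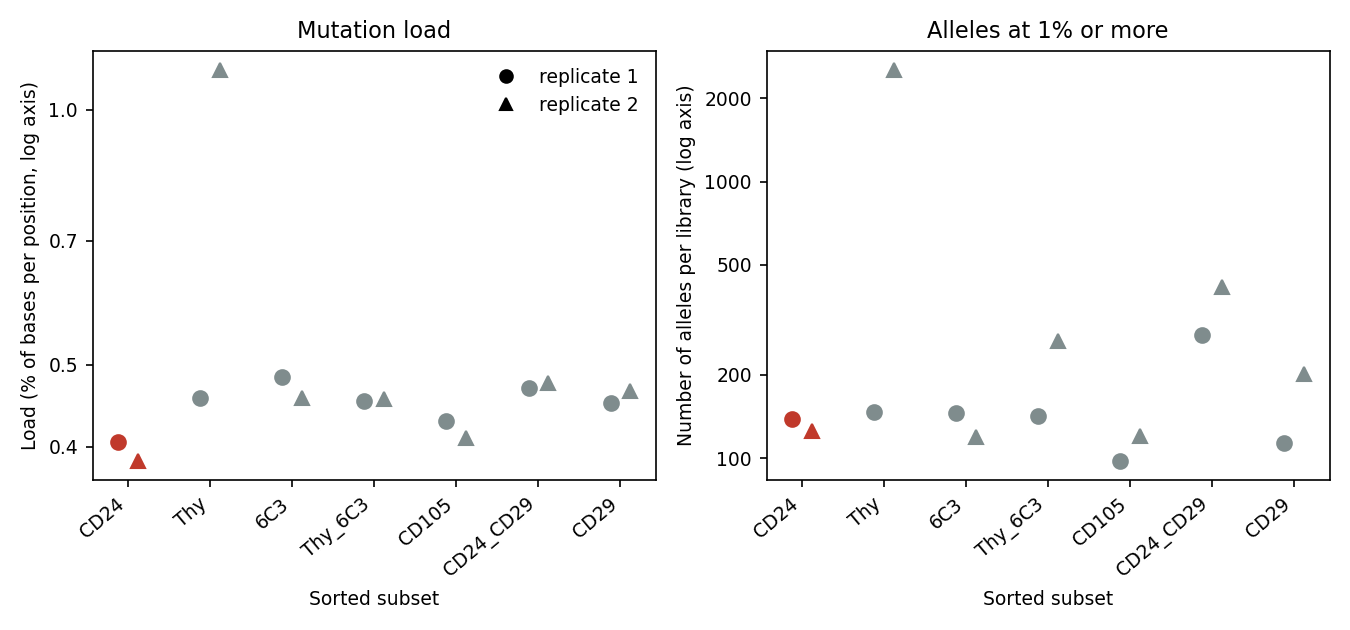
Load in percent (left, log axis) and number of alleles at 1% or more (right, log axis) of each library, with circles for replicate 1 and triangles for replicate 2 of each sorted subset and CD24 in red. CD24 has the lowest load in both replicates, at 0.405% and 0.385%, while its 139 and 125 alleles lie within the range of the others, and Thy replicate 2 lies far above all libraries at 1.114% and 2530 alleles.

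The lower load of CD24 lay in alleles under 1%. These summed to 0.385% in CD24 replicate 1, against 0.412% to 0.464% in the other 6, and to 0.366% in CD24 replicate 2, against 0.390% to 0.898%. The difference was -0.0947 points with all libraries (two-sided exact permutation p = 0.163) and -0.0553 without Thy replicate 2 (p = 0.0238 by the same permutation test). With all libraries, each choice that took Thy replicate 2 again gave a larger absolute difference than CD24. Alleles at 1% or more summed to 0.0200% and 0.0187% in CD24, which ranked 5 and 2 from the lowest of 7, and their difference from the others was -0.0204 points (exact permutation p = 0.449), or -0.00468 without Thy replicate 2 (permutation p = 0.571). In replicate 1, alleles between 0.1% and 0.5% made up 86.5% of the difference in load between CD24 and the mean of the others. In replicate 2, with Thy left out, they made up 68.9%. Alleles under 0.1% were not lower in CD24. In replicate 1 they made up 0.0601% of bases in CD24, inside the 0.0554% to 0.0637% of the others (mean 0.0598%). In replicate 2, with Thy left out, they made up 0.0641%, inside 0.0514% to 0.0649% (mean 0.0585%).

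By kind of base change, CD24 was low in most transversions and inside the range of the others in A>G and T>C. In C>A, a change that oxidised guanine on the opposite strand is known to produce, CD24 had 26.9 and 25.4 per 10000 bases, against 26.6 to 54.9 in the 12 others with a median of 30.9. G>T, its complement, stood at 27.0 and 25.4 per 10000 in CD24, against 26.6 to 56.8 with a median of 31.2. CD24 replicate 2 was below all others in both, and CD24 replicate 1 was the second lowest of its number. A>T was lowest in CD24 in both numbers, at 15.8 and 15.02 per 10000, against 15.6 to 36.7. G>C was lowest in both as well, at 4.79 and 4.41, against 4.47 to 18.2. C>T, a change that cytosine deamination is known to produce, stood at 11.5 per 10000 in each CD24 library, against 11.3 to 14.1. T>C stood at 16.4 and 17.1, against 15.1 to 32.1. None of the 12 changes (0%) had both CD24 libraries outside the range of the others, and 0 of 12 passed the exact permutation test after adjustment, with the lowest unadjusted p at 0.122 for C>T.

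**Figure D2:**
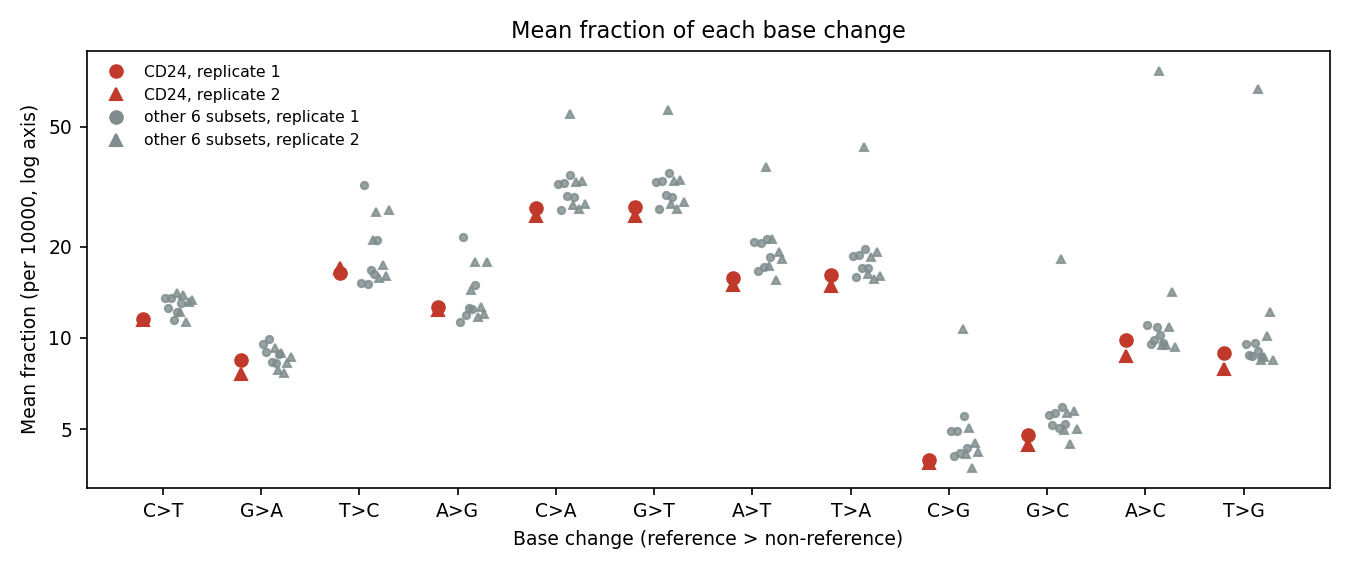
Mean fraction of each of the 12 base changes, per 10000 bases at positions with that reference base (log axis), with CD24 in red to the left of the other 6 subsets in grey, circles for replicate 1 and triangles for replicate 2. CD24 lies at the lower end for C>A (26.9 and 25.4), G>T (27.0 and 25.4) and A>T (15.8 and 15.02), and inside the others for A>G and T>C.

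The pairs of complementary changes took unequal shares of the load difference. In replicate 1, A>T with T>A made up 31.5% of it, C>A with G>T 27.6%, and T>C with A>G 26.2%. C>T with G>A made up 6.85%, C>G with G>C 4.71%, and A>C with T>G 3.08%. In replicate 2, with Thy left out, A>T with T>A made up 26.4%, T>C with A>G 24.3%, C>A with G>T 23.4%, A>C with T>G 17.1%, C>T with G>A 5.71% and C>G with G>C 3.07%. With Thy included in replicate 2, A>C with T>G made up 43.2% of the difference.

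The low load of CD24 spread over the genome. In replicate 2 it was the lowest of 7 in all 17 regions, and in replicate 1 in all but ATP8, a small subunit of ATP synthase, where it ranked 2. Both CD24 libraries lay below all 12 others in 10 of 17 regions (58.8%), and 0 of 17 (0%) passed the exact permutation test after adjustment, with unadjusted p between 0.163 and 0.184. As for the whole load, each choice that took Thy replicate 2 gave a larger absolute difference than CD24, so no region could pass with it included. Without Thy replicate 2 all 17 passed, and without both Thy libraries 15 did. The regions are parts of the same load, so these passes are not separate results. CYTB, the complex III subunit encoded here, had a load of 0.389% and 0.383% in CD24, against 0.405% to 1.127% in the others. ND6, the complex I subunit read from the opposite strand, had 0.448% and 0.433% in CD24, against 0.460% to 1.263%. The tRNA genes together had 0.387% and 0.379% in CD24, against 0.402% to 1.097%. ATP8 had 0.493% and 0.420% in CD24, against 0.441% to 1.221%, so there the libraries overlapped.

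CD24 was low at silent and protein-changing sites alike. The mean fraction over all possible missense alleles was 13.7 and 13.1 per 10000 in CD24, against 13.9 to 39.5 in the others. Synonymous alleles stood at 13.8 and 12.6 per 10000 in CD24, against 13.3 to 31.0. Alleles that create a stop codon stood at 13.6 and 12.9, against 13.7 to 39.2. CD24 was the lowest of 7 in both numbers in each of the 4 coding classes, the 4th being alleles outside protein genes, at 13.02 and 12.5 against 13.4 to 36.3. Both CD24 libraries lay below all 12 others in 3 of 4 classes (75%), while 0 of 4 (0%) passed the exact permutation test after adjustment (p = 0.163 each). Here too the choices that took Thy replicate 2 gave larger absolute differences than CD24, so no class could pass with it included. Without Thy replicate 2, 3 of the 4 passed, again as parts of the same load.

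Coverage along the mitochondrial genome set CD24 at the edge of the libraries in several regions, without passing the adjusted test. CD24 read most of the stretch from CYTB through TrnT and TrnP into the control region less deeply, relative to the library's own mean, than each of the 12 other libraries did. The control region holds the promoters and the heavy-strand origin of replication. Its coverage was 0.839 and 0.840 times the library mean in CD24. It was 0.886 to 1.045 times in the others of replicate 1 and 0.922 to 1.018 times in those of replicate 2. CYTB stood at 1.09 and 1.10 times the mean in CD24, against 1.153 (CD105) to 1.659 (CD24_CD29) in replicate 1 and 1.207 (6C3) to 1.461 (CD29) in replicate 2.

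On the log2 scale the difference between CD24 and the others was -0.21 for the control region (two-sided exact permutation p = 0.0204, the smallest possible; 0.0867 after adjustment over 17 regions) and -0.29 for CYTB (exact permutation p = 0.0408, adjusted 0.116). ATP8 stood at log2 ratios of 0.17 and 0.22 to the library mean in CD24, against -0.07 to 0.15 in the others. ND3, a complex I subunit, stood at 0.20 and 0.17, the second just above the 0.04 to 0.17 of the others. ND4, another complex I subunit, stood at 0.15 and 0.14, against 0.05 to 0.12. Each of these 3 genes reached the smallest p as well (exact permutation p = 0.0204, adjusted 0.0867). Both CD24 libraries lay outside all 12 others in 6 of 17 regions (35.3%), which were these 5 and the large ribosomal RNA gene mt-Rnr2. None of 17 (0%) passed after adjustment with the replicate number as a block, where at least 7 regions at the smallest p would be needed to pass. Without the block, ATP8, ND3, ND4 and the control region passed at an adjusted exact permutation p of 0.0467 each, and CYTB did not (0.0934).

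**Figure D3:**
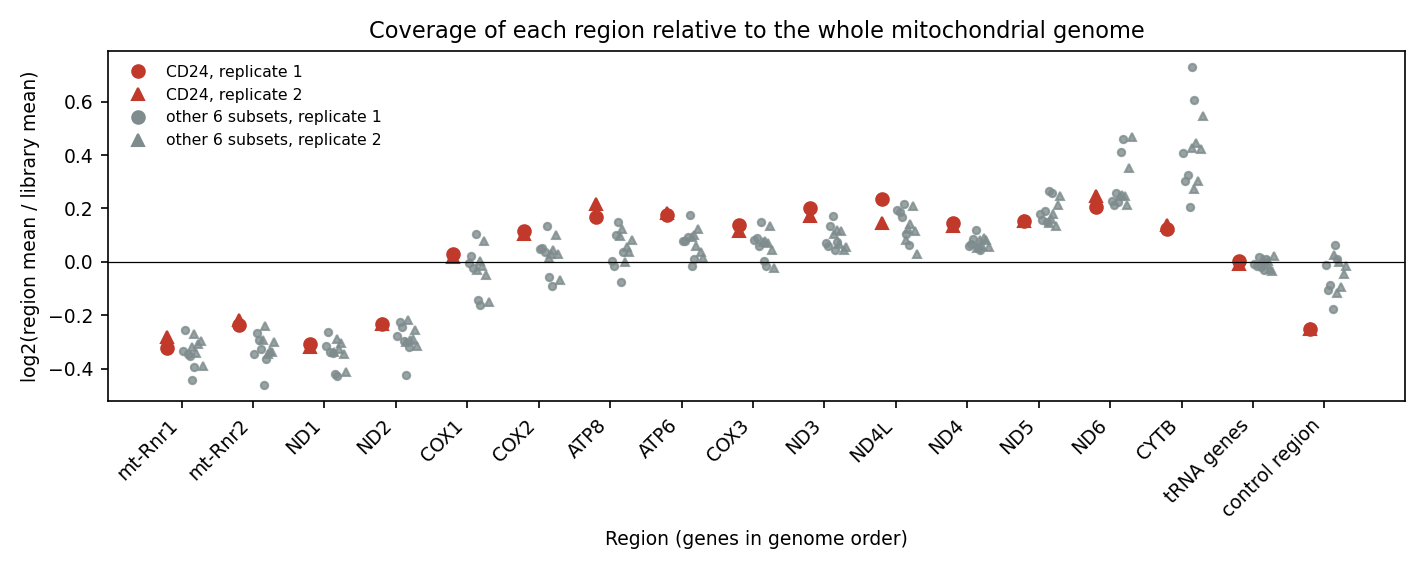
Log2 of the mean coverage of each of 17 regions over the library's mean coverage, with genes in genome order followed by the tRNA genes and the control region, CD24 in red to the left of the other 6 subsets in grey, circles for replicate 1 and triangles for replicate 2. Both CD24 libraries lie below all 12 others in CYTB and the control region and above all 12 in mt-Rnr2, ATP8, ND3 and ND4.

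In 163 bins of 100 positions, both CD24 libraries lay below all 12 others in 16 (9.82%) and above all 12 in 19 (11.7%). The bins below all formed 2 unbroken runs, of 12 bins at positions 14701 to 15900 and of 4 bins at 14201 to 14600. Over the longer run CD24 was read at 0.994 and 1.006 times the library mean. The other 6 stood at 1.089 to 1.512 times in replicate 1, with a median of 1.271, and at 1.15 to 1.391 times in replicate 2, with a median of 1.324. The gap was widest at positions 15501 to 15600, inside the control region, at log2 ratios of 0.02 and -0.00 in CD24 and a mean of 0.48 in the others. By positions 15901 to 16000 it was down to -0.04. From 16001 to the end of the control region CD24 was above the mean of the others, by 0.10 to 0.11. At 16201 to 16299 both CD24 libraries lay above all 12 others. The bins above all 12 were scattered, the longest run being 4 bins at 7801 to 8200, across ATP8 and the start of ATP6. Load was low in CD24 on both sides of this boundary. Inside the long run it was 0.349% and 0.333% in CD24, against medians of 0.395% and 0.394% in the others. Outside the run it was 0.409% and 0.389%, against 0.459% and 0.468%.

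The number of alleles at 1% or more in CD24 lay within the range of the other subsets. To be counted, an allele needed 5 counts and 1% of the coverage in that library. CD24 held 139 and 125 such alleles, against 98 (CD105) to 280 (CD24_CD29) in replicate 1 and 119 (6C3) to 2530 (Thy) in replicate 2. The difference was -249.6 alleles (two-sided exact permutation p = 0.367), and -57.5 without Thy replicate 2 (p = 0.476 by the same permutation test). Transitions were 61.9% and 57.6% of CD24's alleles, against 53.5% to 70.0% and 3.79% to 69.8%. That difference of 3.13 percentage points (exact permutation p = 0.653) changed sign without Thy replicate 2, to -1.82.

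Protein genes held a smaller share of CD24's alleles than of all possible alleles, and the control region a larger one. In CD24 replicate 1, 79 of 139 (56.8%) lay in protein genes, with 45 missense, 33 synonymous and 1 stop. In CD24 replicate 2, 72 of 125 (57.6%) did, with 54 missense, 17 synonymous and 1 stop. Missense alleles were 32.4% and 43.2% of CD24's alleles, against 31.6% to 42.5% in the others of replicate 1 and 39.2% to 54.7% in those of replicate 2. Synonymous alleles were 23.7% and 13.6%, against 16.2% to 22.5% and 13.2% to 21.4%, so that CD24 was above the others in replicate 1 and near their lower end in replicate 2. Without Thy replicate 2 the others of that number ran from 14.2% to 21.4%, all above CD24. Protein genes hold 69.6% of all possible alleles, and in the other libraries they held 56.1% to 66.1% and 54.2% to 72.5% of the counted ones. The control region held 27 (19.4%) and 23 (18.4%) of CD24's alleles, against 10.4% to 25.5% and 6.49% to 20.2% in the others and 5.38% of all possible alleles. The tRNA genes held 16 and 15, and the rRNA genes 16 and 15.

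The highest alleles of CD24 were also high in the other subsets of the same replicate number. Of CD24's 139 alleles in replicate 1, 53 were counted in all 6 others and 35 in none. Of its 125 in replicate 2, 60 were counted in all 6 others and 16 in none. The number counted in CD24 alone lay within the others' 2 to 167 in replicate 1 and 9 to 2375 in replicate 2 (difference -239.9, two-sided exact permutation p = 0.388; -54.2 without Thy replicate 2).

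The 5 highest alleles of CD24 replicate 1 were C10658T, G3079A, C7953T, C7166T and T2674A. C10658T, silent in ND4 (L164L), reached 19.7% in CD24 (exact 95% interval 19.1% to 20.3%), against 15.97% to 21.7% in the others with a median of 17.4%. G3079A, which changes ND1 by S110N, reached 16.9% in CD24, against 15.6% to 20.4%. Both lay inside the range of the others. C7953T falls where ATP8 and ATP6, which overlap, share bases, giving S63L in ATP8 and keeping F9F in ATP6. It reached 14.1% in CD24 (interval 13.6% to 14.6%), against 7.60% to 12.8% with a median of 10.6%, above all 6 others. In replicate 2 C7953T stood at 1.345% in CD24, inside the 1.053% to 2.505% of the others and below their median of 2.164%. C7166T, which changes COX2 by H52Y, reached 11.4% in replicate 1, against 7.38% to 11.02%. T2674A in mt-Rnr2 reached 11.2%, against 6.99% to 11.7%.

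In CD24 replicate 2 other alleles led, with C7166T the only one common to both lists. C11959T, which changes the complex I subunit ND5 by S73L, reached 23.1% in CD24 (interval 22.5% to 23.7%), against 18.4% to 24.9% with a median of 22.5%, and was at 0.152% in CD24 replicate 1. C1051T in TrnV, the valine tRNA, reached 17.9% in CD24 (interval 17.2% to 18.7%), against 9.81% to 16.5% with a median of 14.5%, above all 6 others. C14024T changes ND6 by C16Y and reached 10.5% in CD24, against 7.27% to 9.87%. In replicate 1 the same allele was lower in CD24, at 3.74%, than in each of the others, at 4.52% to 7.49%. C609T in mt-Rnr1 reached 7.29%, against 4.90% to 7.89%, and C7166T 6.70%, against 5.53% to 7.92%.

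Levels of shared alleles in CD24 were spread to both sides of the others. Among the alleles counted in at least 5 of the 6 other libraries, 72 in replicate 1 and 82 in replicate 2, the median ratio of CD24 to the mean of the others was 0.985 and 1.017. CD24 exceeded all 6 others in 22 and 18 of them and was below all 6 in 12 and 13. On a common set for all subsets, the 64 and 73 alleles counted in at least 6 of 7 libraries, CD24 was the highest library in 22 (34.4%) and 18 (24.7%). In replicate 1 the others were highest in 0 (6C3) to 18 (CD24_CD29). In replicate 2 they were highest in 1 (CD105) to 18 (Thy), so Thy was level with CD24. Many of the alleles highest in CD24 lay in a short stretch of the control region, T16133A, T16140A and T16150A among them. They are therefore not spread evenly over the shared alleles. Without Thy replicate 2, CD24 was the highest of 6 in 24 of 74 (32.4%) in replicate 2, and the others in 2 to 17.

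**Figure D4:**
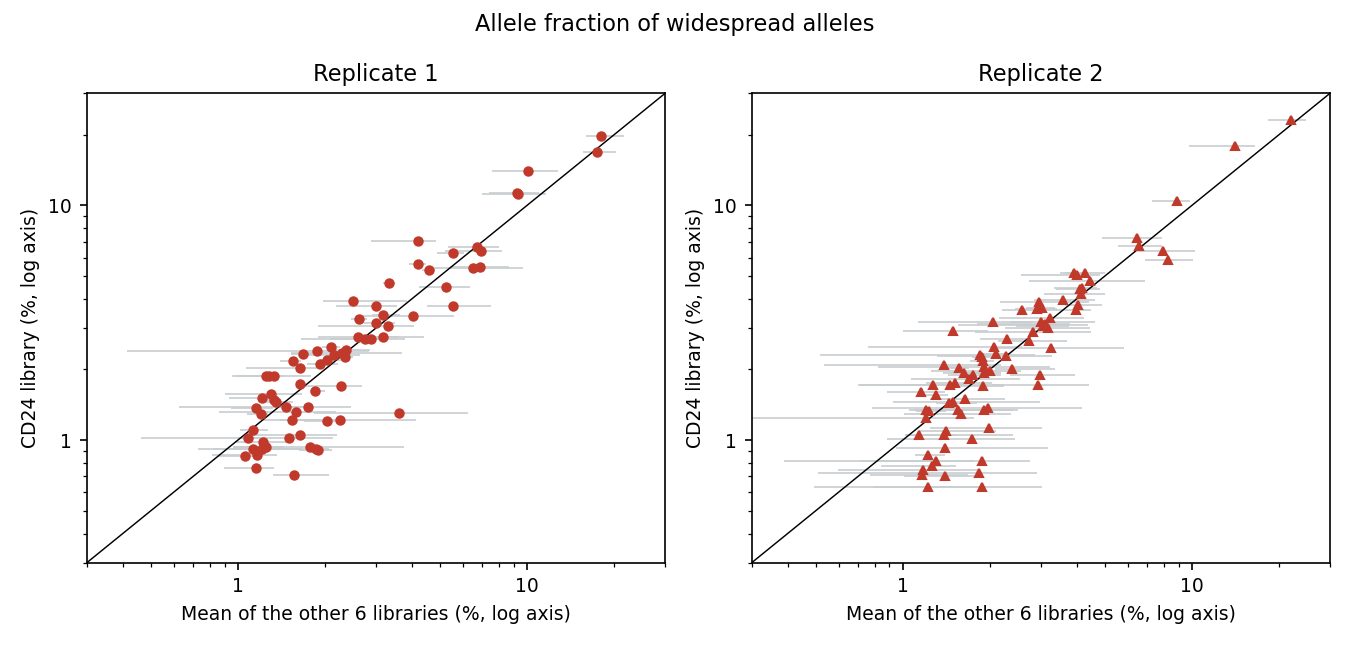
Allele fraction in the CD24 library (vertical) against the mean of the 6 others with the same replicate number (horizontal), both in percent on log axes, for the 72 and 82 alleles counted in at least 5 of the 6 others. Grey bars span the lowest to the highest of the 6 and the line marks equal fractions; the points scatter to both sides of it, with median ratios of 0.985 and 1.017.

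The largest gaps in replicate 1 were in ribosomal RNA, ND5 and ATP6 on the high side. C227T in mt-Rnr1, the small ribosomal RNA gene, stood at 7.07% in CD24 (interval 6.61% to 7.55%), against 2.90% to 4.83% in the others with a median of 4.54%. C12515T, silent in ND5, stood at 3.90%, against 1.96% to 3.86%. A8266C, I114L in ATP6, stood at 1.88%, against 0.956% to 1.79%. On the low side was G5171A, in the short stretch between TrnN and TrnC that holds the light-strand origin of replication, at 1.31% in CD24 (interval 1.13% to 1.499%), against 1.84% to 6.28% with a median of 3.19%. A14026C and T14046C in ND6 stood at 0.711% and 0.906%, against 1.33% to 2.06% and 1.63% to 2.11%. All 6 lay outside the range of the other libraries of replicate 1, and in replicate 2 their fractions in CD24 were 0.0368% to 0.668%.

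In replicate 2 the high side was led by T4773C, L287P in ND2, at 2.90% in CD24 (interval 2.62% to 3.21%), against 1.002% to 1.97% with a median of 1.45%. T9820A in TrnR, the arginine tRNA, stood at 3.20%, against 1.13% to 2.83%. A4524G, N204S in ND2, stood at 2.08%, against 0.534% to 2.18%, so at least 1 other library exceeded it. On the low side, C14149T, T2M in CYTB, stood at 0.628% in CD24, against 0.494% to 3.03% with a median of 2.01%. C7621T, silent in COX2, stood at 0.721%, against 0.510% to 2.92%, and A11579G in TrnH at 0.817%, against 0.389% to 2.77%. In each of these 3 a library other than CD24 was the lowest.

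Alleles counted in CD24 alone were low. The 35 of replicate 1 ran from 1.005% to 2.321% with a median of 1.142%, and the 16 of replicate 2 from 1.002% to 1.25% with a median of 1.105%. In 24 of the 35 and 12 of the 16, another library of the number held the allele at 0.5% or more, just under the threshold. The clearest was A10457C, silent in ND4 (S97S), at 2.32% in CD24 replicate 1 (interval 2.12% to 2.54%), against 0.0252% to 0.0596% in the others. In replicate 2 it stood at 0.0225% in CD24, against 0.0256% to 0.433%. T664G in mt-Rnr1 followed, at 2.07% in CD24 replicate 1, against 0.308% to 0.419%, and C10043T, S56F in ND4L, at 1.69%, against 0 to 0.388%. In replicate 2 the highest were C3925T at 1.25%, against 0.0905% to 0.801%, A5636T, W103C in COX1, at 1.24%, against 0.551% to 0.934%, and T5896C, I190T in COX1, at 1.23%, against 0.0372% to 0.572%. Missense alleles were 13 of the 35 and 10 of the 16, and synonymous alleles 10 and 5.

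More of the alleles common to both CD24 libraries lay in the control region than anywhere else. Both CD24 libraries counted 43 alleles, which is 30.9% of the alleles of replicate 1 and 34.4% of those of replicate 2. The other subsets counted 35 (CD29) to 48 (Thy) alleles in both of their libraries, so CD24 lay among them. All 12 other libraries counted 24 of them, and none of the 12 counted C3925T or A1085G. Of the 43, 23 lay in the control region and 12 in protein genes (9 missense and 3 synonymous), and 10 were transitions. The control region alleles were not particular to CD24, as most of the 23 were counted in all 12 others. The other libraries counted 24 to 29 alleles in the control region in replicate 1 and 23 to 167 in replicate 2. Of the 23, 22 sat in a window of 71 bases, whose 20 affected positions are in capitals in the reference sequence.
Control region, MT:16085-16155: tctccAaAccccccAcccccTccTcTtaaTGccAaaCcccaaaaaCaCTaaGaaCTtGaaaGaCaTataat

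Of the 7 T>A alleles of this window, 3 were higher in both CD24 libraries than in all 12 others. Among its alleles of other base changes, only G16146T was, at 1.298% and 1.344% in CD24, against 1.078% to 1.284%. T16133A stood at 5.62% and 5.14% in CD24, against 3.65% to 4.48% in the 12 others. T16140A stood at 3.28% and 3.59%, against 2.21% to 2.93%, and T16150A at 2.18% and 2.03%, against 1.34% to 1.70%. A16099C stood at 5.31% and 4.74% in CD24, inside the 2.74% to 6.86% of the others. The edgeR log2 difference for T16133A was 0.43 with a standard error of 0.35 (adjusted p = 0.943). The lower coverage of CD24 ended short of this window. At positions 16101 to 16200 the log2 ratio to the library mean was -0.48 and -0.42 in CD24 and averaged -0.55 in the others.

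Across all tested alleles no difference between CD24 and the other 6 subsets passed. The edgeR quasi-likelihood test, with the replicate number as a term and Benjamini-Hochberg adjustment, called 0 of 3475 alleles (0%) in each direction. At an unadjusted p under 0.05 it held 55 (1.58%), and its lowest adjusted p was 0.691. Without Thy replicate 1, 1315 of 3442 alleles were under 0.05 unadjusted and the lowest adjusted p was 0.0691, still with 0 calls. Over the other libraries left out in turn, 42 to 77 alleles were under 0.05 unadjusted. DESeq2 called 0 with 93 under 0.05 unadjusted, a quasi-binomial model 0 with 49, and limma on arcsine square root fractions 0 with 61. CD24 against each of the 6 other subsets in turn also gave 0 calls each by edgeR (0%), with the lowest adjusted p at 0.0818 for C8752T against CD24_CD29. Of the 3475 alleles, 2360 (67.9%) were counted in Thy replicate 2 and in no other library.

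The smallest p among alleles higher in CD24 was that of A1085G in TrnV. It and the next, C11030T and C3925T, were counted in CD24 and in none of the 12 other libraries, so they entered the test through the libraries in which they were high. It stood at 1.03% (interval 0.830% to 1.26%) and 1.05% (0.854% to 1.28%) in CD24. In the others it stood at 0.172% to 0.736% in replicate 1, with a median of 0.475%, and at 0.0969% to 0.583% in replicate 2, with a median of 0.416%. CD24 was the highest of 7 in both numbers, with a log2 difference of 1.64 ± 0.44 (SE; edgeR adjusted p = 0.943). C3925T, silent in ND2 (I4I), stood at 1.04% and 1.25% in CD24, against 0.130% to 0.445% and 0.0905% to 0.801%, a log2 difference of 1.97 ± 0.58 (edgeR adjusted p = 0.943). C11030T, silent in ND4 (Y288Y), stood at 1.34% in CD24 replicate 1, against 0.0394% to 0.479%. In replicate 2 it stood at 0.183%, level with the highest of the others.

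The smallest p-values among alleles lower in CD24 were those of 3 C>T changes at 0 or 1 count in each CD24 library. C8752T and C8297T entered the test only through CD24_CD29 replicate 2, and C2192T through 2 libraries of replicate 1, so they were chosen by libraries in which they were high. C8752T, T49I in the complex IV subunit COX3, had 0 counts in both CD24 libraries. The others held 0.0436% to 0.473% in replicate 1, with a median of 0.0912%, and 0.0146% to 1.12% in replicate 2, with a median of 0.0428%. Against the limit of 3 counts per library, CD24 was at least 8.26-fold lower than the mean of the others in replicate 1 and at least 14.6-fold lower in replicate 2, but the edgeR adjusted p was 0.691. Without the CD24_CD29 library of each number these bounds were 4.88-fold and 5.28-fold, and in replicate 2, 2 of the others lay under the 0.0184% that 0 counts allow in CD24. C8297T, S124L in ATP6, had 1 count in each CD24 library, against 0.0442% to 0.370% in the others of replicate 1 and 0.0523% to 2.26% in those of replicate 2. Its ratio to the mean of the others was 0.0346 (counting interval 0.000876 to 0.193) in replicate 1 and 0.00803 (0.000203 to 0.0447) in replicate 2, or 0.0511 and 0.0226 without the CD24_CD29 libraries. C2192T in mt-Rnr2 also had 1 count in each CD24 library, against 0.233% to 1.43% in the others of replicate 1 and 0 to 0.335% in replicate 2. G7406A, E132K in COX2, entered the test only through CD24_CD29 replicate 1, so it too was chosen by a library in which it was high. It had 0 counts in both CD24 libraries, against 0.0348% to 1.80% and 0.0396% to 0.548%. The medians of the others were 0.0749% and 0.09005%. Of the 3475 tested alleles, CD24 had 5 at 0 in both of its libraries, CD24_CD29 had 4, Thy_6C3 had 1 and the other subsets had none. These were also the subsets of lowest mean log2 coverage, at 14.04, 13.2 and 14.09, against 14.54 to 15.7 in the others. The part of depth in these zeros was not tested.

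**Figure D5:**
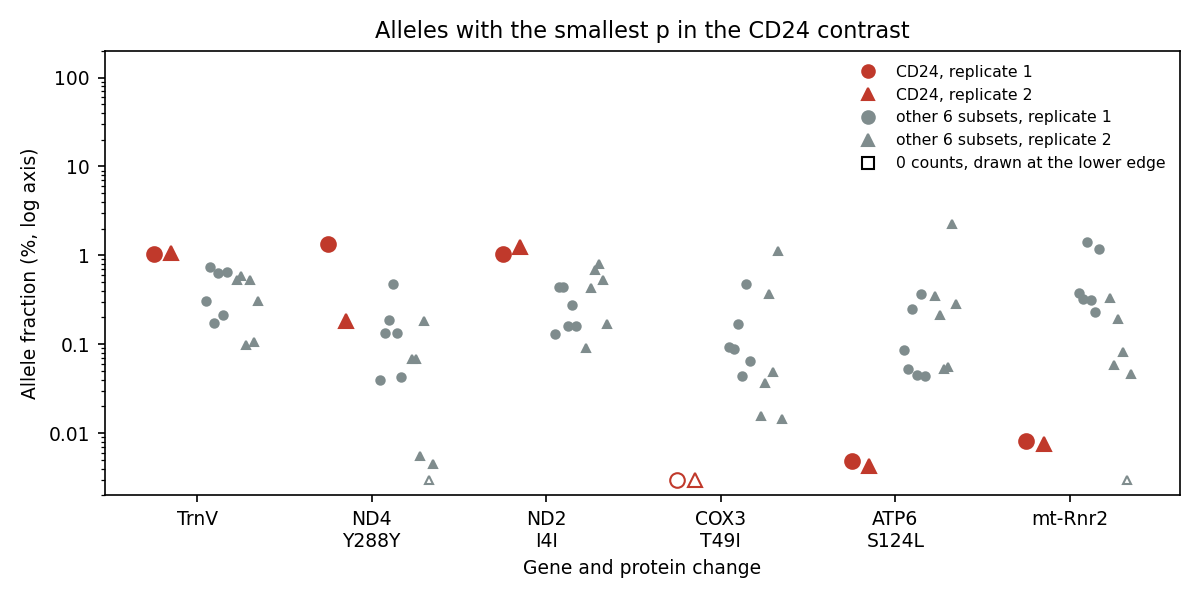
Allele fraction in percent (log axis) of the 6 alleles with the smallest p in the edgeR contrast of CD24 against the other 6 subsets, 3 higher and 3 lower, with CD24 in red to the left, the others in grey, circles for replicate 1, triangles for replicate 2 and open symbols for 0 counts. CD24 is above all others in TrnV (1.03% and 1.05%) and ND2, and has 0 counts in COX3 and 1 count per library in ATP6 and mt-Rnr2.

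CD24 was more often the lowest of 7 than the highest of 7 in both replicate numbers. It was highest in 17 of 3475 alleles (0.489%), where the other subsets were in 1 to 539, and lowest in 225 (6.47%), where the others were in 10 to 144. Of the 225, 182 (80.9%) were counted only in Thy replicate 2, against 67.9% of all tested alleles. CD24 could be lowest in such alleles but not highest, so the choice of alleles tilts the 2 counts. A>C or T>G changes were 169 of the 225 (75.1%), against 63.4% of all tested alleles. Without Thy replicate 2, and with alleles chosen anew, CD24 was highest in 25 of 1115 (2.24%) and lowest in 48 (4.31%). These alleles too were chosen by the libraries in which they were high. CD24_CD29 then led both counts, with 115 highest and 72 lowest.

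Of the 17 alleles highest in CD24 in both numbers, 6 lay in tRNA genes, 5 in the control region, 5 in protein genes and 1 in mt-Rnr1. A>G changes were 6 of them and T>A changes 4. Of all 3475 tested alleles, 7.94% lay in tRNA genes, 5.27% in the control region and 72.03% in protein genes, and 5.93% were A>G and 3.25% T>A. But 67.9% of the tested alleles were counted only in Thy replicate 2, so CD24 could not be highest in them. None of the 17 was among them, so these shares are no like background for the 17. Of CD24's 139 and 125 counted alleles, 16 and 15 lay in tRNA genes and 27 and 23 in the control region. A>G changes were 28 and 20 of them. Whether the 17 differ from these counted alleles was not tested. After C3925T and A1085G, the largest ratio averaged over both numbers was that of A5009G in TrnW, the tryptophan tRNA. A5009G stood at 1.253% and 0.710% in CD24, against 0.281% to 0.737% and 0 to 0.556%. It entered the test only through CD24 replicate 1, and C3925T and A1085G only through the CD24 libraries. These alleles were therefore chosen by CD24's own high values, which tilts their ratios upward. Of the 5 in protein genes, 4 were silent, and the other was A12888G, M383V in ND5, at 1.12% and 0.815% in CD24, against means of 0.447% and 0.539%.

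In its whole allele profile CD24 lay among the other subsets. The distance between libraries is the root mean square difference of allele fractions on the arcsine square root scale, over the alleles counted in any of the 7 libraries of a number. These were 488 alleles in replicate 1 and 3115 in replicate 2. Of the 3115, 2375 were counted in Thy alone, so distances in the 2 numbers are not on a like scale. Distances to single subsets were not computed without Thy replicate 2. CD24's mean distance to the other 6 was 0.0342 in replicate 1 and 0.0267 in replicate 2, against 0.0272 to 0.0517 and 0.0249 to 0.0644 for the others, with a difference of -0.00436 (two-sided exact permutation p = 0.714). CD24 was nearest to CD105 in replicate 1 (0.0230) and to 6C3 in replicate 2 (0.0109). It was farthest from CD24_CD29 in replicate 1 (0.0555) and from Thy in replicate 2 (0.0664), with CD24_CD29 the next farthest (0.0309). CD24_CD29, which shares the CD24 marker in its name, was thus farther from CD24 than 6C3, CD105 and CD29 were in both numbers. Its 2 libraries were also the shallowest of their numbers, at mean coverages of 13534 and 6569, and the part of depth in these distances was not tested.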

How the data were processed

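The authors deposited whole-number counts, not normalized: for every library, how often each mitochondrial position was read and how often with each other base. The submitters' processing notes name BWA 0.7.17, cutadapt 2.10, bcl2fastq 2.20, GRCm38 and mm10. What each was used for, and how base quality, duplicate reads and nuclear copies of mitochondrial sequence were treated, is not given in the sources consulted; each can change a low allele fraction.

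From these counts, over 16299 positions and 48897 possible alleles, fractions were computed in Python 3.11.15 with numpy 2.4.6, pandas 2.3.3, scipy 1.17.1 and Biopython 1.88, and drawn with matplotlib 3.10.9. Sequences are the reference bases in the deposited tables; genes came from RefSeq's GRCm38.p6 table and codons from the vertebrate mitochondrial code. Counted alleles had a fraction of 1% or more and at least 5 counts. Exact permutation tests took the mean over both replicate numbers of CD24 minus the mean of the other 6, two-sided, over 49 choices (91 without the block). Alleles counted in at least 1 of 14 libraries were tested with edgeR 4.0.16 (quasi-likelihood, R 4.3.3) on paired non-reference and remaining counts, with terms for library and, in the non-reference columns, for subset and replicate number (6 residual degrees of freedom). DESeq2 1.42.0, limma 3.58.1 and a quasi-binomial model were alternatives. The fits were tested on simulated data. Thresholds were 0.05 after Benjamini-Hochberg adjustment. Intervals are exact (Clopper-Pearson, 95%), and they and the limits of 3 counts cover counting error only, as no molecular identifiers were read.

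Replicate numbers were kept as a block because same-numbered libraries deviated together: over the 21 pairs of subsets, the correlation of their deviations ran from 0.344 to 0.850. Named alleles were the 3 of smallest p in each direction, the 5 highest and the 3 highest private ones of each CD24 library, the 3 highest and 3 lowest ratios among shared alleles per number, the 5 highest of those counted in both, and the 3 largest ratios among those highest or lowest of 7 in both. T16140A, T16150A, G16146T and A12888G lie outside that rule and were chosen after their values were seen. The comparison, lists and rules were chosen with earlier results of these data known. CD45 libraries entered as an alternative only.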

Additional observations from a re-analysis of the deposited data

How the results depend on the processing

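The direction of the load difference was the same under every setting tried, from -0.178 to -0.0524 percentage points with single libraries left out, and that of alleles under 1% likewise, from -0.138 to -0.0515. Load passed the exact permutation test without Thy replicate 2 (-0.0600, p = 0.0238), without both Thy libraries (-0.0600, p = 0.0278), as ranks (-3.5 ranks, p = 0.0408), and with Thy replicate 2, C>A and G>T left out (-0.0449, p = 0.0476), the last 2 settings chosen after seeing the data. Alleles under 1% passed without Thy replicate 2 (-0.0553), without Thy (-0.0553) and as ranks (-3.5). Regions whose lower load passed the adjusted test numbered 17 without Thy replicate 2 and 15 without Thy, and coding classes 3 and 3, against 0 each with all libraries (0 to 17 and 0 to 3 over the libraries left out). The transition share turned to -1.82 points without Thy replicate 2, -2.23 without Thy and -4.06 at a threshold of 2%, and ran from -1.82 to 4.78 over the libraries left out. Without the replicate block, 4 regions passed for relative coverage; in the other results the block and the pairing it rests on changed no call. Over the libraries left out, the difference was -0.0399 to -0.000905 points for alleles at 1% or more, -483.8 to -15.3 for allele number, -466.0 to -13.8 for private alleles and -0.90 to -0.12 for log2 coverage. No allele was called in any of the 27 fits, with a lowest adjusted p of 0.0691, without Thy replicate 1. Exact tests over 49 choices cannot give a p under 0.0204, and fractions under about 0.0186% are limited by depth. For load, its regions and its coding classes, the choices that took Thy replicate 2 kept p above that value. The causes were not tested.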
